A study of Mus musculus with 15 samples.

Results

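Abcg5 and Abcg8 encode the partners of one ATP-driven sterol pump, and their liver mRNA is described here beside that of Abca1 and Scarb1, the genes of another cholesterol exporter and of the hepatic high-density lipoprotein (HDL) receptor. These 4 genes of the 19938 with a value were taken by symbol, from probe sets annotated with a single gene, and each of the 4 had 1 such probe set. The members were selected on their null against wild-type values, Abcg5 and Abcg8 for being lower in PPARα-null mice, so every null against wild-type value of the 4 genes is a description and carries no test. Liver RNA of 15 male mice aged 7.5 months was measured on Affymetrix single-colour arrays, 1 array per animal. PPARα (gene Ppara) is a nuclear receptor through which peroxisome proliferators such as the plasticizer di(2-ethylhexyl) phthalate (DEHP) act in rodent liver. The groups were 3 null mice given DEHP (animals KO-121 to KO-123), 4 null mice given corn oil (KO-115 to KO-118), 4 wild-type mice given DEHP (WT-56 to WT-59) and 4 wild-type mice given corn oil (WT-52 to WT-55). DEHP was given by gavage at 1150 mg/kg/day in 4 daily doses, and corn oil, its vehicle, was given to all 4 groups. The null mice were of the strain 129S4/SvJae-Pparatm1Gonz/J, in which Ppara is disrupted in the whole animal, and the wild-type mice of the strain 129S1/SvlmJ. An effect of the receptor's loss therefore cannot be told apart from one of the 129 substrain.

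ABCG5 and ABCG8 must pair to leave the endoplasmic reticulum and reach the canalicular membrane of the hepatocyte, where the pair secretes cholesterol and plant sterols into bile. Loss of either gene causes sitosterolemia, a build-up of plant sterols, in humans and in mice. Both genes are known targets of the liver X receptors (LXR), which are activated by oxysterols. ABCA1 loads cholesterol and phospholipid onto apolipoprotein A-I to form HDL, and SR-BI, the product of Scarb1, takes cholesteryl ester from HDL into the hepatocyte.

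The mouse genes lie head to head on chromosome 17, and the sequence between their starts is shown because both mRNAs are read outward from it. In RefSeq's GRCm38.p6 the Abcg5 start on the minus strand and the nearer of 2 Abcg8 starts on the plus strand were 110 bases apart. The 109 bases between them, chr17:84683012-84683120, read on the plus strand from the Abcg5 side as follows, with matches to the GATA-factor motif GATAA, which reads TTATC on this strand, in capitals.
Abcg5 to Abcg8: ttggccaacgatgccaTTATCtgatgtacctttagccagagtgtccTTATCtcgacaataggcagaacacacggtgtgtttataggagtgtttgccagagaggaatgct
The search covered both strands, and the 2 matches lay 93 and 63 bases before the Abcg8 start, or 21 and 51 bases before the Abcg5 start. At least 1 GATAA stood in 9.36% of the 32851 RefSeq promoter windows when these were shortened to the same length. The TATA-box letters TATAAA matched once, on the strand opposite to the one printed, against 5.9% of windows with a match. The nuclear receptor letters AGGTCA (6.39% of windows), the LRH-1 letters CAAGGTCA (0.487%) and the direct repeats AGGTCANAGGTCA (0.0152%) and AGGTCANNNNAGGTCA (0.0122%) had no match in these 109 bases. The motifs overlap in their letters, since 3 of them contain AGGTCA. The other RefSeq start of Abcg8 lies within Abcg5. Which start an array signal comes from, and whether the probes of one gene meet RNA of the other where the genes overlap, was not stated with the data.

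Median intensity per array ran from 44.4 to 47.53, and arrays of one group correlated at r = 0.988 to 0.992 across probe sets. The labels name each array as a separate animal, and with 3 or 4 arrays a group their number limits the precision. Values are log2 of the deposited intensity, so a difference of 1 is a doubling, and values of different probe sets are not on a common scale. The Ppara probe set lay between 8.99 and 9.27 in the 7 null livers and between 9.55 and 10.23 in the 8 wild-type livers. The null against wild-type difference of Ppara was -0.64 ± 0.13 under DEHP (adjusted p = 0.00422, limma) and -0.69 ± 0.12 under corn oil (adjusted p = 0.00645). The sources used here do not say whether its probes lie in the disrupted stretch. Of 10 other PPARα targets measured, 7 rose with DEHP in wild-type mice, beside 2.29% of all genes. In null mice 0 of the 10 were called in limma, beside 0.16% of all genes that rose and 0.311% that fell, so a count of 0 in a list of this size says little. Summed intensity of 5 hepatocyte markers overlapped between all groups, from 48570 to 54635. With DEHP in wild-type mice 1 of the 5 fell and 0 rose, beside 1.57% and 2.29% of all genes. This was Cps1, lower by 0.34 (adjusted p = 0.019, limma, lost in 5 of 8 fits without 1 animal). In bulk liver, fewer cells of a type and less RNA per cell cannot be told apart.

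**Figure D1:**
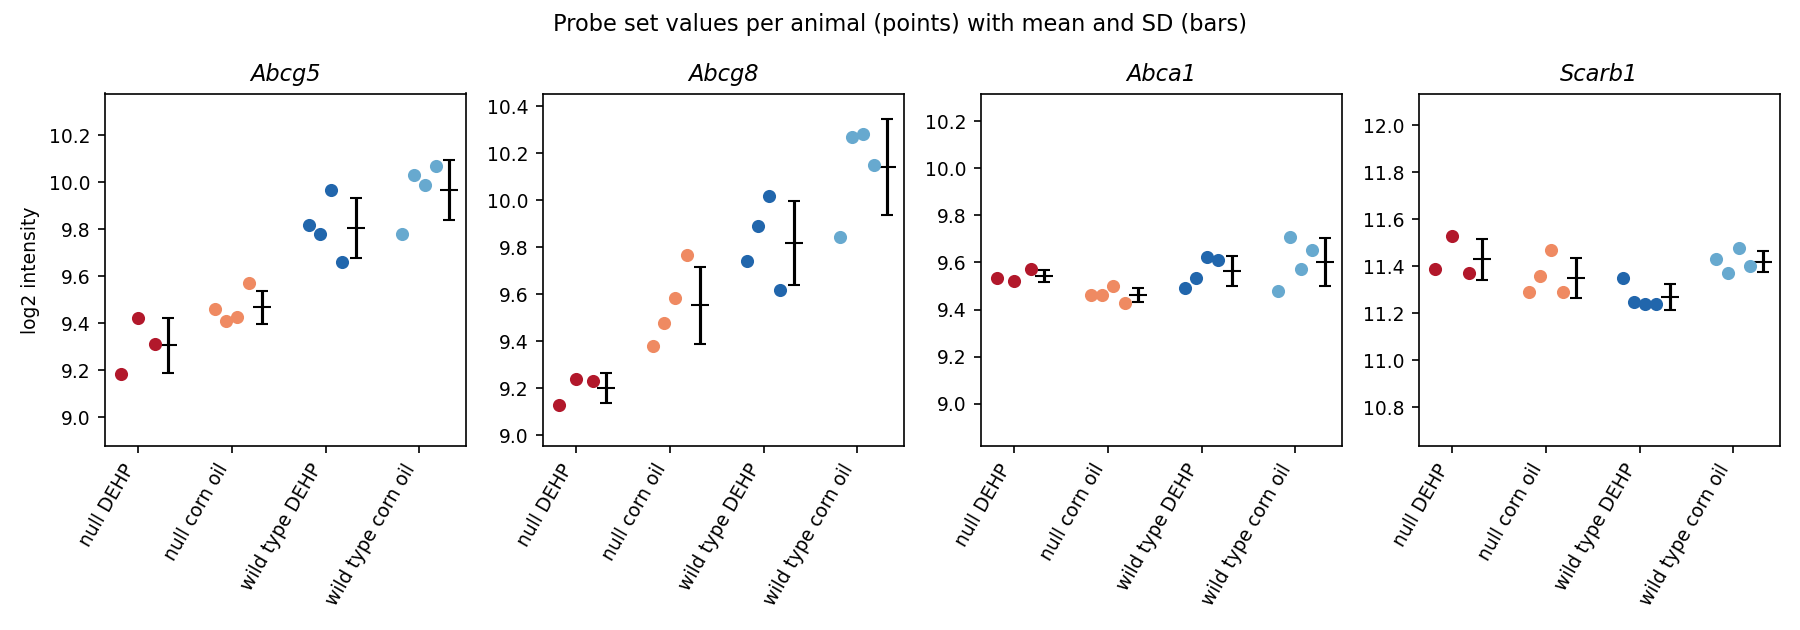
Log2 intensity (vertical axis) of Abcg5, Abcg8, Abca1 and Scarb1 in each liver, with 1 point per animal and the group mean ± SD beside the points; from left to right the groups are null DEHP, null corn oil, wild type DEHP and wild type corn oil. All 7 null livers lie below their wild-type counterparts of the same treatment for Abcg5 and Abcg8, and the 4 groups lie close together for Abca1 and Scarb1.

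Abcg5 gave 9.19, 9.42 and 9.31 in null DEHP livers and 9.46, 9.41, 9.43 and 9.57 in null corn oil livers. It gave 9.82, 9.78, 9.97 and 9.66 in wild type DEHP livers and 9.78, 10.03, 9.99 and 10.07 in wild type corn oil livers. Every null liver was below every wild-type liver, and the highest null value came from an animal given corn oil. Group means were 9.31 ± 0.12 in null DEHP, 9.47 ± 0.07 in null corn oil, 9.81 ± 0.13 in wild type DEHP and 9.97 ± 0.13 in wild type corn oil livers (SD, n = 3, 4, 4 and 4). The order of the means was the same as for Abcg8, and neighbouring groups that differ in treatment overlapped for Abcg5. As the values that chose the gene, the null against wild-type differences of Abcg5 were -0.50 ± 0.09 (SE) under DEHP and -0.50 ± 0.08 under corn oil, each a fold of 0.707.

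Abcg8 gave 9.13, 9.24 and 9.23 in null DEHP livers and 9.38, 9.48, 9.59 and 9.77 in null corn oil livers. It gave 9.74, 9.89, 10.02 and 9.62 in wild type DEHP livers and 9.84, 10.27, 10.28 and 10.15 in wild type corn oil livers. The null DEHP livers formed the lowest group with no overlap with any other, while null corn oil overlapped wild type DEHP, and wild type DEHP overlapped wild type corn oil. Group means were 9.20 ± 0.06 in null DEHP, 9.55 ± 0.17 in null corn oil, 9.82 ± 0.18 in wild type DEHP and 10.14 ± 0.20 in wild type corn oil livers (SD, n = 3, 4, 4 and 4). The null against wild-type differences of Abcg8, again the values that chose it, were -0.62 ± 0.12 under DEHP (fold 0.652) and -0.58 ± 0.11 under corn oil (fold 0.668). Within each treatment the genotypes did not overlap for either gene, and 9.51% of all genes were lower without overlap in null mice under DEHP and 3.67% under corn oil. Across all genes the differences of Abcg5 and Abcg8 stood low in both settings, with 2.26% and 1.32% of genes lower still under DEHP and 0.592% and 0.426% under corn oil. Leaving out any 1 animal kept the Abcg5 difference between -0.56 and -0.44 under DEHP and between -0.56 and -0.47 under corn oil. The Abcg8 difference then stayed between -0.69 and -0.55 under DEHP and between -0.68 and -0.53 under corn oil.

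Abca1 was at 9.53, 9.52 and 9.57 in null DEHP livers and at 9.46, 9.46, 9.50 and 9.43 in null corn oil livers. It was at 9.49, 9.53, 9.62 and 9.61 in wild type DEHP livers and at 9.48, 9.71, 9.57 and 9.65 in wild type corn oil livers. The genotypes overlapped under both treatments, and the null against wild-type difference of this apolipoprotein A-I loading pump was -0.02 ± 0.06 under DEHP and -0.14 ± 0.06 under corn oil. Scarb1 was at 11.39, 11.53 and 11.37 in null DEHP livers and at 11.29, 11.36, 11.47 and 11.29 in null corn oil livers. It was at 11.35, 11.25, 11.24 and 11.24 in wild type DEHP livers and at 11.43, 11.37, 11.48 and 11.40 in wild type corn oil livers. The null DEHP livers were above the wild type DEHP livers without overlap for this HDL receptor, as were 11.0% of all genes, and the corn oil groups overlapped. The null against wild-type difference of Scarb1 was 0.16 ± 0.07 under DEHP and -0.07 ± 0.06 under corn oil.

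The effect of DEHP did not enter the choice of the genes and was tested in the fit across all 19938 genes. In wild-type mice none of the 4 genes passed an adjusted p of 0.05 in limma, where 2.29% of all genes rose and 1.57% fell, and 2 of the 4 had an unadjusted p under 0.05, as had 16.8% of all genes. Abcg8 was -0.32 ± 0.11 in DEHP against corn oil livers of wild-type mice (fold 0.803, 95% interval -0.55 to -0.09, adjusted p = 0.133), and WT-57 and WT-58 of the DEHP group lay above WT-52 of the corn oil group. Of the 8 fits that each left out 1 animal, 7 did not call Abcg8, with an adjusted p of up to 0.317 (limma, without WT-59). The only call came without WT-52, whose Abcg8 was the lowest of its group, at a difference of -0.41 (adjusted p = 0.0425, limma). Abcg5 was -0.16 ± 0.08 (95% interval -0.33 to 0.01, adjusted p = 0.334) in the same comparison. Scarb1 was -0.15 ± 0.06 (adjusted p = 0.22), and its 4 DEHP livers lay below the 4 corn oil livers without overlap, which 5.77% of all genes did. With quantile normalization of the log2 values this Scarb1 difference was -0.25 and was called (adjusted p = 0.0328, limma). Abca1 was -0.04 ± 0.06 (adjusted p = 0.819).

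In null mice again none of the 4 genes passed in limma, where 0.16% of all genes rose and 0.311% fell, and Abcg8 had an unadjusted p under 0.05, as had 12.3% of all genes. Abcg8 was -0.35 ± 0.12 in DEHP against corn oil livers of null mice (fold 0.783, 95% interval -0.60 to -0.10, adjusted p = 0.201). The 3 DEHP livers lay below all 4 corn oil livers, a separation shown by 4.42% of all genes in that direction. Abcg5 was -0.16 ± 0.09 (95% interval -0.35 to 0.02, adjusted p = 0.483), and KO-122 of the DEHP group overlapped the corn oil group. Abca1 was 0.08 ± 0.06 (adjusted p = 0.677) with the DEHP livers above the corn oil livers without overlap, as for 5.57% of all genes. Scarb1 was 0.08 ± 0.07 (adjusted p = 0.702).

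The mean of the DEHP effects in both genotypes was added after these values had been seen. Abcg8 fell by it, at -0.34 ± 0.08 (fold 0.793, 95% interval -0.51 to -0.17, adjusted p = 0.0328, limma), against 0.898% of all genes that fell and 1.96% that rose. That call is not firm: it was lost in 10 of the 15 fits that each left out 1 animal, with an adjusted p of up to 0.0787 (without KO-121), and it was lost over all probe sets (adjusted p = 0.0717). The direction was kept in all 15, between -0.38 and -0.30. Abcg5 had a mean DEHP effect of -0.16 ± 0.06 (adjusted p = 0.182), Abca1 of 0.02 ± 0.04 (adjusted p = 0.875) and Scarb1 of -0.04 ± 0.04 (adjusted p = 0.761).

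**Figure D2:**
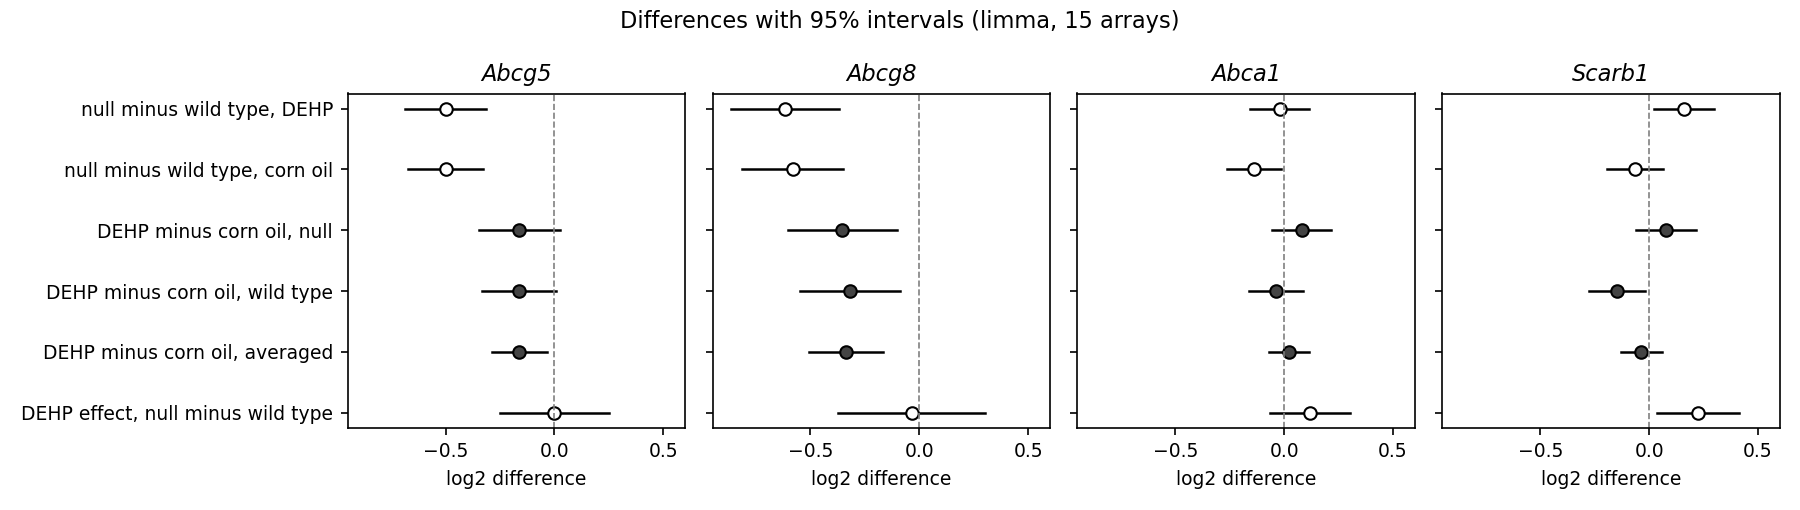
Log2 differences (horizontal axis) with 95% intervals from limma for the 4 genes, one panel each; open points are null minus wild type, which chose the genes, and the null minus wild-type difference of the DEHP effect, which is made of these, and filled points are DEHP minus corn oil in null mice, in wild-type mice and their mean. For Abcg8 the DEHP points stand at -0.35 in null and -0.32 in wild-type mice, and for Abcg5 at -0.16 in both.

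The null minus wild-type difference of the DEHP effect equals the null against wild-type difference under DEHP minus that under corn oil. It is thus made of the values that chose the genes, and for the 4 genes it is a description with no test; 0.336% of all genes were called upward and 0.562% downward for it. For Abcg5 it was 0.00 ± 0.12, with a 95% interval of -0.25 to 0.25, and for Abcg8 it was -0.04 ± 0.16, with an interval of -0.38 to 0.30. These intervals leave room for a difference of the DEHP effect in either direction. For Abca1 it was 0.12 ± 0.09, and for Scarb1, whose DEHP effect had opposite signs in the genotypes, 0.23 ± 0.09. The DEHP and corn oil livers enter several of these comparisons, so the comparisons are not independent of each other.

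Whether DEHP moved one member more than another was examined within arrays, as the log2 difference between 2 probe sets in the same liver, over 6 pairs in each genotype. Abcg8 minus Abca1 averaged -0.34 ± 0.06 in null DEHP livers and 0.09 ± 0.18 in null corn oil livers, a shift of -0.43 (two-sided exact permutation p = 0.0286, adjusted over 12 comparisons 0.114). In wild-type mice it averaged 0.26 ± 0.18 in DEHP livers and 0.53 ± 0.14 in corn oil livers, a shift of -0.28 (exact p = 0.0571, adjusted 0.137). In null mice the shifts of Abcg8 minus Scarb1 (-0.43) and Abcg5 minus Abca1 (-0.24) also had an exact p of 0.0286, the smallest that 3 against 4 or 4 against 4 animals gave. None of the 12 comparisons passed after adjustment. A pass was possible only if most of the 12 had reached this smallest p, so the lack of one says little. Abcg5 minus Abcg8 was higher in DEHP than in corn oil livers by 0.19 in null mice (exact p = 0.0857, adjusted 0.171) and by 0.16 in wild-type mice (exact p = 0.114, adjusted 0.196). Whether Abcg8 fell more than Abcg5 is not settled by these comparisons.

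Animals of one group also differed from each other in both partners together. Each liver's deviation from its own group mean was correlated over the 15 livers, which takes out genotype and treatment. For Abcg5 and Abcg8, Pearson's r was 0.801 (exact p = 0.00282 over 82944 arrangements within groups, adjusted over 6 pairs 0.0169) and Spearman's rho was 0.746 (exact p = 0.00591, adjusted 0.0354). Of the 15 animals, 12 had both genes on the same side of their group means. Animal WT-52 of the wild type corn oil group was lowest, at -0.19 for Abcg5 and -0.29 for Abcg8, and animal WT-58 of the wild type DEHP group was high in both, at 0.16 and 0.21. Without these 2 animals r was 0.658. Within groups r was 0.914 in null DEHP, 0.737 in null corn oil, 0.885 in wild type DEHP and 0.861 in wild type corn oil livers, each over 3 or 4 animals and given without a test. Leaving out 1 animal gave r between 0.695 and 0.849, and the adjusted exact permutation p rose above 0.05 without WT-52 (0.115), WT-58 (0.0645), WT-59 (0.0587) or KO-118 (0.0654). Quantile normalization also took this p just above 0.05, with the values given further below. The other 5 pairs had r between -0.292 (Abca1 and Scarb1) and 0.401 (Abcg8 and Abca1), with adjusted exact p of 0.421 or more.

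**Figure D3:**
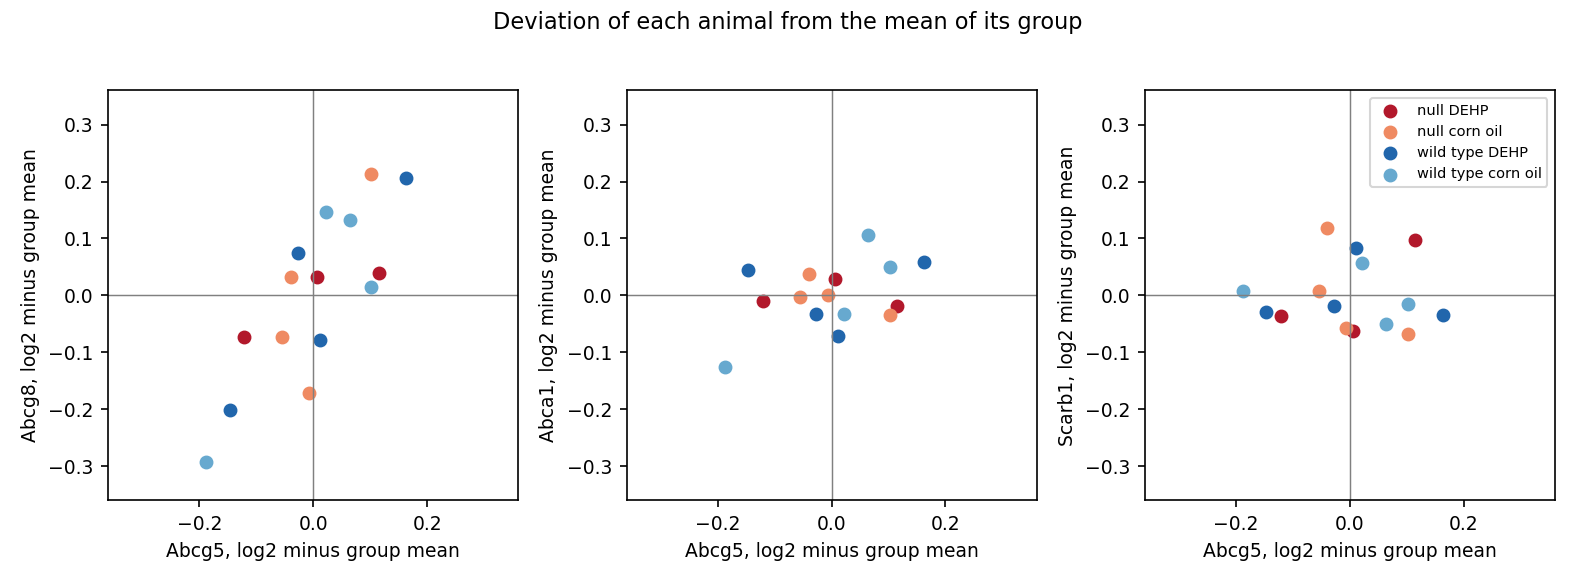
Deviation of each animal from its group mean in log2 units, with Abcg5 on the horizontal axis against Abcg8, Abca1 and Scarb1 on the vertical axes; colours mark the 4 groups. The points of Abcg5 and Abcg8 run along the diagonal (r = 0.801), and those of Abcg5 with Abca1 (r = 0.394) and Scarb1 (r = -0.00988) do not form such a line.

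As a description over the 15 arrays and 9859 genes with a mean log2 of at least 6, the gene whose values were most like those of Abcg5 was Abcg8, and the reverse held, with r = 0.953. After it, Abcg5 was most like Adck2 (r = 0.94), Spg11 (0.923), Gna12 (0.912) and Pigo (0.899), and Abcg8 was most like Id1 (0.906), Adck2 (0.888), Bcl2l13 (0.874) and Spg11 (0.872). These arrays share genotype and treatment, so such an r largely repeats the group means. Abca1 ranked 789 for Abcg5 and 1153 for Abcg8, and Scarb1 ranked 5984 and 5855. With group means taken out, Abcg8 ranked 32 for Abcg5 and Abcg5 ranked 57 for Abcg8, so other genes varied among animals of a group more like each partner than the other partner did. The genes named here were picked for their likeness, so their differences are given without a test. Gna12, a G protein α subunit, was -0.93 ± 0.12 in null against wild-type mice under DEHP and -1.07 ± 0.11 under corn oil. Spg11, a lysosomal protein of hereditary spastic paraplegia, was -0.45 ± 0.07 and -0.49 ± 0.07 in the same comparisons. Id1, an inhibitor of basic helix-loop-helix factors, had a mean DEHP effect of -0.49 ± 0.08.

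Other pumps of the bile canaliculus were called in both directions. Of 9 other ABCG genes and canalicular pumps measured, 1 rose and 2 fell with DEHP in wild-type mice, with a list median of -0.03 against -0.01 for all genes. In that comparison 2.29% of all genes rose and 1.57% fell. Abcg2, which exports drugs and porphyrins, rose to 10.14 ± 0.24 in wild type DEHP livers, against 9.58 ± 0.09 in wild type corn oil livers (SD, n = 4 each, difference 0.55 ± 0.10, adjusted p = 0.00561, limma). Abcb11, the bile salt export pump, fell by 0.33 on the log2 scale to 11.59 ± 0.11 in wild type DEHP livers, against 11.92 ± 0.07 in wild type corn oil livers (adjusted p = 0.0124). Atp8b1, the flippase that protects the canalicular membrane, fell by 0.27 (adjusted p = 0.0466), and none of the 8 fits without 1 animal called it. Abcb4, which supplies the phosphatidylcholine that biliary cholesterol is carried with, was 0.21 ± 0.09 (adjusted p = 0.264). In null mice 0 of the 9 genes were called with DEHP in limma, where 0.16% of all genes rose and 0.311% fell. Under DEHP 2 of the 9 were higher in null than in wild-type mice (Abcb11 by 0.30, lost in 1 of 7 fits, and Atp8b1 by 0.27, lost in 5 of 7) and Abcg2 was lower, at -0.74 ± 0.11 (adjusted p = 0.000498), beside 5.09% of all genes higher and 5.61% lower. Under corn oil 0 of the 9 were called in null against wild-type mice, beside 0.642% of all genes higher and 0.547% lower.

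Of 14 LXR receptor, partner and target genes measured, 3 rose and 1 fell with DEHP in wild-type mice and 0 were called in null mice, with list medians of -0.01 and -0.02. The shares of all genes called were 0.16% upward and 0.311% downward in null mice, near which a count of 0 of 14 lies, and 2.29% upward and 1.57% downward in wild-type mice. Nr1h3, which encodes LXRα, lay at 9.94 ± 0.06 in null DEHP, 9.95 ± 0.08 in null corn oil, 10.02 ± 0.06 in wild type DEHP and 10.02 ± 0.06 in wild type corn oil livers, and was called in no comparison. Pltp, the phospholipid transfer protein, rose by 1.34 ± 0.17 in wild-type mice (adjusted p = 0.000319, limma) and was 0.11 ± 0.19 in null mice (adjusted p = 0.876). Its interaction of -1.23 ± 0.25 had an adjusted p of 0.0325, lost in 8 of 15 fits without 1 animal. Mylip, an LXR-induced ubiquitin ligase, fell by 0.45 in wild-type mice (adjusted p = 0.0014) and was -0.05 ± 0.08 in null mice. Smpdl3a, a phosphodiesterase induced by LXR in macrophages, rose by 0.36 ± 0.07 in wild-type mice (adjusted p = 0.0122). Cyp7a1, the enzyme that starts bile acid synthesis from cholesterol, was 1.68 ± 0.41 in wild-type mice (adjusted p = 0.0331, lost in 6 of 8 fits without 1 animal) and 1.55 ± 0.45 in null mice (adjusted p = 0.13). Its mean DEHP effect of 1.61 ± 0.30 was called in the full set and without each animal (adjusted p = 0.00786). Srebf1, the lipogenic regulator, was -0.20 ± 0.22 in wild-type mice (adjusted p = 0.732). The 4 called genes of this list moved in both directions, and Abcg5 and Abcg8 themselves were not called in either genotype alone. Under DEHP 2 of the 14 were higher and 2 lower in null than in wild-type mice (5.09% and 5.61% of all genes). Under corn oil 0 were called, beside 0.642% of all genes higher and 0.547% lower, so this 0 says little.

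Other factors known to act on the Abcg5 and Abcg8 promoter region or on hepatocyte genes in general were mostly not called. Of 11 measured, Foxo1 alone was called with DEHP in wild-type mice, lower by 0.27 (adjusted p = 0.0351, limma, lost in 7 of 8 fits without 1 animal). The downward share of all genes in that comparison was 1.57%. With DEHP in null mice 0 of the 11 were called, beside shares of 0.16% upward and 0.311% downward, so this 0 says little. Of the 11, 3 were higher and 0 lower in null than in wild-type mice under DEHP, beside 5.09% and 5.61% of all genes. Hnf4a, a hepatocyte master regulator, was 0.33 ± 0.08 higher (adjusted p = 0.00995, limma, and 0.0627 without KO-122). Nr5a2, which encodes LRH-1, was 0.27 ± 0.07 higher (adjusted p = 0.0228, lost in 4 of 7 fits), and Foxo1 0.24 ± 0.07 higher (adjusted p = 0.0478, lost in 6 of 7). Under corn oil the same differences were 0.14 ± 0.07 for Hnf4a (adjusted p = 0.458), -0.08 ± 0.07 for Nr5a2 (adjusted p = 0.714) and 0.03 ± 0.07 for Foxo1 (adjusted p = 0.934). Gata4 and Gata6, whose family's motif is marked in the printed sequence, were 0.13 ± 0.09 and 0.00 ± 0.08 in null against wild-type mice under DEHP (adjusted p = 0.49 and 0.997). Of 4 folding helpers of the endoplasmic reticulum, Canx, the lectin chaperone calnexin, was higher in null mice under DEHP by 0.26 ± 0.07 (adjusted p = 0.0188, lost in 3 of 7 fits), and none was called with DEHP in either genotype.

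**Figure D4:**
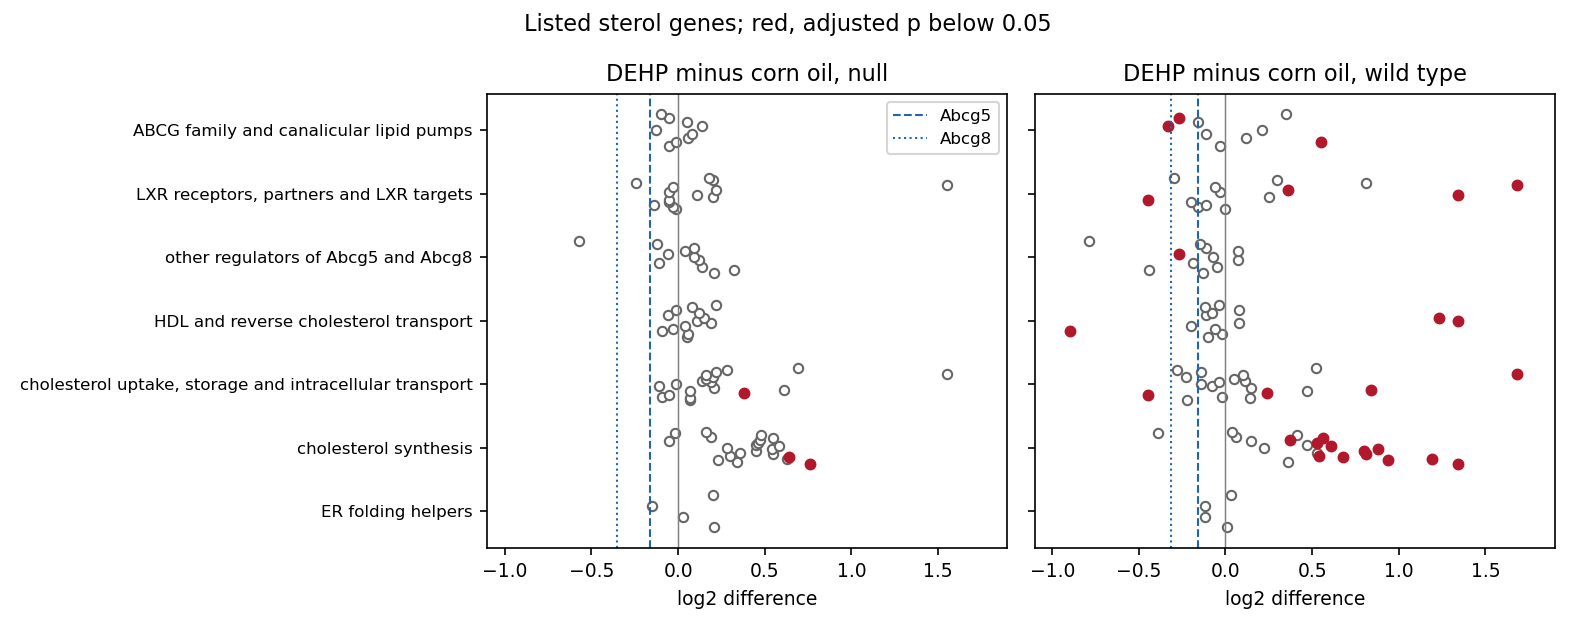
Log2 difference of DEHP minus corn oil (horizontal axis) for each measured gene of 7 sterol-related lists, in null mice on the left and wild-type mice on the right; red points had an adjusted p below 0.05 (limma) and vertical lines mark Abcg5 and Abcg8. Most cholesterol synthesis genes lie to the right of 0 in both panels, while the lines of Abcg5 and Abcg8 lie to the left of it.

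Of 13 genes of HDL and reverse cholesterol transport, the setting of Abca1 and Scarb1, 2 rose and 1 fell with DEHP in wild-type mice and 0 were called in null mice, beside 2.29% and 1.57% of all genes in wild-type mice and 0.16% and 0.311% in null mice. Apoa4, an apolipoprotein of HDL and chylomicrons, fell to 12.19 ± 0.04 in wild type DEHP livers, against 13.09 ± 0.03 in wild type corn oil livers (difference -0.90 ± 0.06, adjusted p = 1.86e-07, limma). Lipg, the endothelial lipase that hydrolyses HDL phospholipid, rose by 1.23 ± 0.15 in wild-type mice (adjusted p = 0.0002). Both differed between genotypes in the DEHP effect, by 0.81 ± 0.08 for Apoa4 (adjusted p = 0.000172) and by -1.08 ± 0.22 for Lipg (adjusted p = 0.0316, lost in 6 of 15 fits). Apoa1, the acceptor of ABCA1 lipid, was -0.10 ± 0.06 in wild-type and 0.05 ± 0.06 in null mice (adjusted p = 0.405 and 0.828). Pdzk1, the scaffold that holds SR-BI at the hepatocyte surface, was 0.24 ± 0.07 higher in null than in wild-type mice under DEHP (adjusted p = 0.0287, lost in 4 of 7 fits). Under DEHP 4 of the 13 were higher and 2 lower in null mice (5.09% and 5.61% of all genes). Under corn oil 1, Apoa4, was higher by 0.43 ± 0.06 (adjusted p = 0.000476, limma), beside 0.642% of all genes.

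Of 21 cholesterol synthesis genes measured, 12 rose and 0 fell with DEHP in wild-type mice (list median 0.53), 2 rose in null mice (list median 0.45), and 16 had a called positive mean effect (list median 0.46, against 0.00 for all genes). The upward shares of all genes in these comparisons were 2.29%, 0.16% and 1.96%. Hmgcs1, which makes HMG-CoA, rose to 11.29 ± 0.28 in wild type DEHP livers, against 9.94 ± 0.16 in wild type corn oil livers (difference 1.34 ± 0.14, adjusted p = 7.9e-05, limma). In null mice Hmgcs1 rose to 11.38 ± 0.01 in DEHP livers, against 10.63 ± 0.31 in corn oil livers (adjusted p = 0.0455, lost in 6 of 7 fits without 1 animal). Idi1, the isopentenyl diphosphate isomerase, rose by 0.68 ± 0.12 in wild-type mice (adjusted p = 0.00377) and by 0.64 ± 0.13 in null mice (adjusted p = 0.0405, lost in 5 of 7 fits). No gene of the 21 was called for the interaction in limma, beside 0.336% of all genes upward and 0.562% downward, so this says little. Of 19 genes of cholesterol uptake, storage and intracellular transport, 3 rose and 1 fell with DEHP in wild-type mice and 1 rose in null mice. The shares of all genes were 2.29% upward and 1.57% downward in wild-type mice, and 0.16% and 0.311% in null mice. Lipa, the lysosomal lipase that frees cholesterol from its esters, rose by 0.24 ± 0.07 in wild-type mice (adjusted p = 0.0466, lost in 6 of 8 fits) and by 0.38 ± 0.07 in null mice (adjusted p = 0.0329, lost in 5 of 7 fits). Ces1d, a carboxylesterase of hepatocyte lipid droplets, rose by 0.84 ± 0.16 in wild-type mice (adjusted p = 0.00741). Cyp27a1, the mitochondrial sterol hydroxylase, was lower in null than in wild-type mice under corn oil, at -0.33 ± 0.06 (adjusted p = 0.016, lost in 2 of 8 fits).

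Taken as sums, stellate cell and fibroblast markers were higher in null than in wild-type livers, and endothelial markers were so under DEHP only. Summed intensity of 6 stellate cell and fibroblast markers was 2322 to 3149 in null DEHP, 2419 to 3554 in null corn oil, 1937 to 2068 in wild type DEHP and 1935 to 2256 in wild type corn oil livers, so null lay above wild type without overlap. The 6 endothelial markers summed to 2579 to 2792 in null DEHP, 2230 to 2496 in null corn oil, 2007 to 2279 in wild type DEHP and 2257 to 2501 in wild type corn oil livers. The 8 Kupffer cell and macrophage markers summed to 2061 to 2453 in null DEHP, 1780 to 2394 in null corn oil, 1457 to 2247 in wild type DEHP and 1607 to 1890 in wild type corn oil livers. Under DEHP 3 of 6 endothelial, 2 of 6 stellate, 1 of 5 hepatocyte and 0 of 8 macrophage markers were higher in null mice in limma, beside 5.09% of all genes. Of these Pecam1, an endothelial adhesion molecule, was lost in 7 of 7 fits without 1 animal and Dcn, the matrix proteoglycan decorin, in 5 of 7. Dcn was also the brightest of the 6 stellate markers, at 10.80 ± 0.22 in null DEHP livers, so it weighs most in their sum. Under corn oil none of the endothelial, stellate, hepatocyte or macrophage markers was called. The shares of all genes there were 0.642% higher and 0.547% lower, so this lack of calls says little. The median null against wild-type difference of the stellate list was 0.49 under corn oil and 0.52 under DEHP. Bile duct markers summed to 205 to 296 in null DEHP, 201 to 251 in null corn oil, 210 to 454 in wild type DEHP and 211 to 232 in wild type corn oil livers, and the 4 lymphocyte markers to between 106 and 166 in all groups, with none called. Of the red cell list Alas2, the erythroid heme synthesis enzyme, was 0.63 ± 0.13 higher in null mice under DEHP (adjusted p = 0.00501, limma), and of 4 pancreas and gut markers only Fabp2 was called. No value on these arrays was 0 (the lowest was 1.77), and the part of these cells in the Abcg5 and Abcg8 values was not tested.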

How the data were processed

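Intensity values were used as the authors deposited them, on a linear scale. Array medians were close, from 44.4 to 47.53, and the normalization was not given in the sources used here. RNA was extracted with the mirVana kit and labelled with the Affymetrix WT cDNA kit, per the labels' protocols. Log2 was taken with no further normalization. Of 35494 probe sets 21789 had 1 symbol, 1621 several and 12084 none; for each of 19938 genes the probe set of highest mean log2 was used. No 2 arrays were identical.

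limma 3.58.1 in R 4.3.3 fitted 1 mean per group to all 15 arrays (residual degrees of freedom 11, prior 4.68), with Benjamini-Hochberg adjustment over all genes and a threshold of 0.05. Values after ± are standard errors for differences and SD for group means. Within-array differences and co-variation were tested by exact permutation in Python 3.11.15 with scipy 1.17.1. The limma step and the co-variation test were checked on simulated data. Promoter sequences came from RefSeq.

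Named genes were the 4 members, Ppara, up to 4 called genes per list and contrast by size, Nr1h3, Nr5a2, Hnf4a, Srebf1 and Cyp7a1, and the 5 genes most like Abcg5 and Abcg8. Abcb4, Apoa1, Pdzk1, Gata4, Gata6 and the chromosome 17 neighbours were named after their values were seen. The members, the 8 gene lists and the 8 marker lists were chosen with earlier results of these data known, and some genes stand in several lists. List genes without a value were not analysed here. The alternatives were arrays of the compared groups alone, quantile normalization, a minimum mean log2 of 6, an intensity trend with robust prior, log2(intensity + 16), all probe sets, and leaving out each animal.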

Additional observations from a re-analysis of the deposited data

Results flagged for a closer look

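Scarb1 in the wild type DEHP group had 1 liver, animal WT-56 at a log2 of 11.35, far from the other 3, which lay at 11.25, 11.24 and 11.24. In 12 groups of 4 animals examined for the 4 genes this was the only such animal, and chance alone sets one apart in about 1 in 20 groups. That animal still lay below the lowest wild type corn oil liver, at 11.37, and the Scarb1 difference of DEHP against corn oil in wild-type mice stayed between -0.18 and -0.13 without each animal in turn.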

How the results depend on the processing

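The genotype differences of Abcg5 and Abcg8 kept their sign under every alternative tried and without each animal. As the values that chose these genes, they remain a description, and their steadiness is no test of them. With quantile normalization the DEHP effect on Scarb1 in wild-type mice was -0.25 (adjusted p = 0.0328, limma), the mean DEHP effect on Abca1 was -0.00595, r of Abcg5 with Abcg8 deviations was 0.738 (adjusted exact p = 0.0507) and that of Abca1 with Scarb1 was 0.019. Over all probe sets the mean DEHP effect on Abcg8 was -0.34 (adjusted p = 0.0717). The cause was not tested.

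Genes called for DEHP in null mice numbered 94, against 1 with the compared groups alone (fewer arrays), 161 with quantile normalization, 432 with a minimum mean log2 of 6 (fewer genes tested), 293 with an intensity trend and 287 with log2(intensity + 16). For the interaction 179 became 574, 424 and 418 under the last 3 of these. For the mean DEHP effect 570 became 973 with the minimum of 6, and for null against wild type under DEHP 2133 became 1331 with the compared groups alone. A fit to the compared groups alone was not run for the interaction or the mean effect, which need all 4 groups, and other probe sets were not run since each member has 1.

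Leaving out each animal gave 433 to 614 called genes for DEHP in wild-type mice, 9 to 168 in null mice, 61 to 299 for the interaction, 372 to 590 for the mean effect and 1019 to 1950 for null against wild type under DEHP. The lowest counts in null mice (9), for the mean effect (372) and for the genotypes under DEHP (1019) came without KO-122, and the lowest in wild-type mice (433) and for the interaction (61) without WT-53. The DEHP effect on Abcg8 ranged from -0.41 to -0.25 in wild-type mice, and its mean effect from -0.38 to -0.30. The interaction ranged from -0.0575 to 0.0628 for Abcg5 and -0.103 to 0.0617 for Abcg8, and the mean effect on Abca1 from -0.000448 to 0.0381. The DEHP shift of Abcg5 minus Scarb1 in wild-type mice ranged from -0.0793 to 0.0252 and that of Abca1 minus Scarb1 in null mice from -0.0436 to 0.0611. Deviations correlated at 0.695 to 0.849 for Abcg5 with Abcg8, -0.264 to 0.109 for Abcg5 with Scarb1, -0.0152 to 0.572 for Abcg8 with Abca1 and -0.171 to 0.122 for Abcg8 with Scarb1. No paired analysis was possible because the groups share no animal numbers.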

Other observations

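The genes on either side of the pair on chromosome 17 were read in the same fit, a set added after the results for the pair were known. Of the 10 nearest protein-coding neighbours, 5 on each side, 9 had a value, and 0 of these 9 were called in limma for null against wild type under DEHP, for null against wild type under corn oil or for the mean DEHP effect. Of all genes 5.09% were called upward and 5.61% downward in the first comparison, 0.642% and 0.547% in the second, and 1.96% and 0.898% in the third. Beside these shares a count of 0 of 9 says little. Slc3a1, a subunit of the cystine and dibasic amino acid transporter, had the largest differences of the 9, at -0.24 ± 0.22 in null against wild-type mice under DEHP (adjusted p = 0.577) and -0.60 ± 0.20 under corn oil (adjusted p = 0.197). Lrpprc, a mitochondrial RNA-binding protein next to the pair, gave 0.07 ± 0.08 and -0.04 ± 0.07 in the same comparisons.

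Fabp2, the intestinal fatty acid binding protein and a marker of gut rather than hepatocytes, responded to DEHP in opposite directions, at -0.87 ± 0.11 in null mice (adjusted p = 0.00412) and 0.61 ± 0.10 in wild-type mice (adjusted p = 0.00353), with an interaction of -1.48 ± 0.15 (adjusted p = 0.000192, limma). Stab2, a scavenger receptor of sinusoidal endothelium, fell by 0.33 with DEHP in wild-type mice (adjusted p = 0.00337). Its null against wild-type difference under DEHP was 0.49 ± 0.06 (adjusted p = 0.000124, limma).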
